A study of Mus musculus with 6 samples.

Results

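The genes described here are 10 genes of fast-twitch skeletal muscle fibres: Myh4, Myh1, Myh2, Mybpc2, Tnnt3, Tnni2, Actn3, Atp2a1, Casq1 and Pvalb. They were selected on the knock-in and wild-type values of these same arrays, with earlier results in view. Their differences between the groups are therefore given as a description, with no test. All 15 probe sets annotated with 1 of these symbols and no other are included, among 45101 probe sets on the array. The 10 genes stand among 18193 genes that have such a probe set, and all 10 passed the filter on dim probe sets, as did 11670 genes in all.

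Total RNA was taken from the skin of 3 knock-in and 3 wild-type mouse samples, and each sample was hybridised to 1 Affymetrix array. The knock-in samples carry the genotype code KA and the source name KAB6, the wild-type samples the genotype WT, and both groups are labelled with a C57BL/6 background. The changed gene is not named, and the labels give no sex, age, body site, treatment or depth of the skin sample. Whether each sample is a separate animal is not stated, so p-values measure only the spread between these samples, which may be technical. Values are linear MAS5 signals, which the authors had scaled to 1 common level per array. Each difference is the knock-in mean less the wild-type mean of log2(signal + 16). The standard error is over 3 arrays per group for the 10 genes and their pairs, and limma's moderated one for genes of the tested lists. Signals of different probe sets depend on the probes, so only differences, not levels, are compared between genes.

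Xist, which is transcribed from the inactive X chromosome, gave 3442 to 4005 on the knock-in arrays, against 27.8 to 32.5 on the wild-type arrays. The Y-linked gene Eif2s3y gave 4.43 to 5.45 on the knock-in arrays and 639 to 721 on the wild-type arrays. Sex and genotype therefore cannot be told apart in any value below. Among markers of other cells of skin, 4 of 7 neutrophil and macrophage genes were higher in knock-in (limma, adjusted p under 0.05), namely S100a8, S100a9, Mmp8 and Itgam. Cd68, Adgre1 and Csf1r did not pass. Mmp8 passed the filter on dim probe sets only on the knock-in arrays, which ties its direction to its entry into the test. The summed signals were 16732 to 21785 in knock-in, against 2714 to 3873 in wild-type. Most of the knock-in sums came from S100a8, at 8492 to 10593, and S100a9, at 5248 to 6877. By the same rule 14.8% of all genes tested were higher in knock-in and 16.3% lower. Of 4 keratinocyte genes 2 were higher, with sums of 28924 to 36803 in knock-in and 23804 to 27344 in wild-type. Of 8 adipocyte genes 1 was higher, with sums of 12498 to 14604 in knock-in and 8926 to 13112 in wild-type, and of 7 fibroblast genes 1 was higher and 1 lower, with sums of 39723 to 45312 and 37827 to 48645. Of 10 smooth muscle genes 7 were tested and 1 was lower, with sums of 3064 to 3345 in knock-in and 3399 to 3994 in wild-type, and of 3 Schwann cell genes 2 were tested and 1 was lower, with sums of 1564 to 1660 and 1730 to 2381. The ratio of the 3′ to the 5′ probe set of Actb, a sign of RNA integrity, was 1.21 to 1.28 in knock-in and 1.22 to 1.28 in wild-type, while the 5′ control for 18S ribosomal RNA gave 166 to 766 and 1314 to 2286. The part of these markers and controls in the results below was not tested.

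Skeletal muscle fibres are classed as slow or fast by the myosin heavy chain they carry, and in the mouse the fast classes are IIa with Myh2, IIx with Myh1 and IIb with Myh4. Fast fibres also use their own forms of troponin, of the calcium pump and of calcium-binding proteins, which together give quick contraction and relaxation, and IIb fibres rely most on glycogen and phosphocreatine. Under the fat of mouse skin lies a thin sheet of striated muscle, the panniculus carnosus, whereas the muscles that raise hairs are smooth. Genes of striated muscle gave strong signals in both groups. Acta1, the actin of skeletal muscle, gave 12153.2, 7588.3 and 8208.2 on the knock-in arrays and 8155, 10384.2 and 8822 on the wild-type arrays. The giant sarcomere protein Ttn gave 3782.3, 1859.1 and 1517.1 in knock-in and 2762.2, 4837.9 and 3343 in wild-type, and both genes overlapped between the groups. The other skeletal muscle markers, Ckm, Mylpf and Des, went different ways. Ckm was lower on every knock-in array, with a log2 difference of -1.05 (limma, adjusted p = 0.00998). Mylpf gave -0.68 and Des 0.57, and neither passed (limma, adjusted p = 0.0819 and 0.184). Of 5 cardiac muscle markers, 4 (Myh6, Nppa, Tnni3 and Myl7) were under a signal of 30 on every array.

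Myh2, Myh1 and Myh4 lie next to each other, in this order, in the myosin cluster of chromosome 11, and they took 3 different courses on these arrays. Their promoter windows, the 250 bases before the annotated start, are shown for that reason, with that of Pvalb, whose difference was the largest of the 10. The sequences are RefSeq's, from assembly GRCm38.p6. Capitals mark matches, on either strand, to an E-box (CANNTG, bound by factors of the MyoD family), a TATA box (TATAAA), the MEF2 site or the CArG box. The MEF3 site (TCAGGTT) was searched too and matched in none of the windows. The windows are chr11:67237562-67237811 for Myh4, chr11:67199852-67200101 for Myh1 and chr11:67170777-67171026 for Myh2, all on the plus strand, and chr15:78206401-78206650 on the minus strand for the upstream start of Pvalb.
Myh4: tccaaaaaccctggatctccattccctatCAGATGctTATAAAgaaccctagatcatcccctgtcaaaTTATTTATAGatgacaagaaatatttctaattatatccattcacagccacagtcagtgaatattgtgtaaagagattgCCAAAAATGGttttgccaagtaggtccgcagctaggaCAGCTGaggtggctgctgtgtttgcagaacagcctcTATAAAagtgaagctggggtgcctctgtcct
Myh1: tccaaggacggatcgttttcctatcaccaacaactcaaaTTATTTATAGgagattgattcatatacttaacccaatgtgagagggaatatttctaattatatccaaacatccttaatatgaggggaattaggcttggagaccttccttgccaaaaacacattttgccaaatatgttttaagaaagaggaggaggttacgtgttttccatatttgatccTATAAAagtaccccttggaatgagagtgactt
Myh2: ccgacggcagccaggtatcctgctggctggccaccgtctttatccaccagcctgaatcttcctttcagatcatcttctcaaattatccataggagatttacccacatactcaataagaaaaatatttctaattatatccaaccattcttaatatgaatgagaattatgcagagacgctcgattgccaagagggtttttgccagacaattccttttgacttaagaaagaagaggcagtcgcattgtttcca
Pvalb: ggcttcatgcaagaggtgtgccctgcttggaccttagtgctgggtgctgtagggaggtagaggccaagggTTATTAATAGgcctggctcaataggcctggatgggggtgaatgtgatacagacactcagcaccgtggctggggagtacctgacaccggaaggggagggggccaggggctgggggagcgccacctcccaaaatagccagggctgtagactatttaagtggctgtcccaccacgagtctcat
The Myh4 window held 2 E-boxes, a MEF2 match 182 bases before the start, a CArG box 104 bases before it and TATA boxes 213 and 31 bases before it. In the Myh1 window the same 10 letters matched MEF2 at 211 bases before the start, and a TATA box stood 32 bases before it. In both windows the reverse TATA box overlaps the MEF2 match. Pvalb held a MEF2 match 180 bases before its start. None of the 5 motifs matched in the Myh2 window, which says only that these letters are not in it. Of the 10 genes, 7 matched a window in the table, with 8 windows between them, of which Pvalb has 2, while Actn3, Tnnt3 and Tnni2 did not. MEF2 matched in 3 of the 8 windows, against 2.92% of 32851 windows of that length, a TATA box in 2, against 12.4%, and the CArG box in 1, against 1.47%. E-boxes matched in 5 of the 8, against 66.2%, and MEF3 in 3.49% of all windows. A match describes the letters of the window and shows no binding.

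Among the myosin heavy chains, the motors of the thick filament, Myh4 was lower on every knock-in array, Myh2 was higher on every knock-in array and Myh1 overlapped between the groups. Myh4 (probe set 1427026_at), the myosin of IIb fibres, gave 2852.7, 2289.8 and 2276.1 on the knock-in arrays, against 6236.3, 10540.1 and 8649.5 on the wild-type arrays. Every knock-in array lay below every wild-type array, and the knock-in arrays were close to each other. The means were 2473 ± 329 in knock-in and 8475 ± 2157 in wild-type (SD, n = 3 each), a log2 difference of -1.75 ± 0.24, with knock-in at 29.2% of wild-type. In whole skin, fewer fibres of a type and less RNA per fibre cannot be told apart. A second, dimmer probe set of Myh4 (1458368_at) gave 53.2, 62.1 and 58.5 in knock-in, against 328.1, 641.0 and 403.2 in wild-type, a log2 difference of -2.63 ± 0.28. Both probe sets separated the groups in the same direction, and their sizes differed.

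Myh2 (1425153_at), the myosin of IIa fibres, gave 2327.3, 826.4 and 875.2 in knock-in, against 548.4, 746.7 and 497.3 in wild-type. Knock-in array 1 stood far above the other two, and the lowest knock-in value was a little above the highest wild-type value. The log2 difference was 1.00 ± 0.51, with knock-in at 225% of wild-type, and it came to 0.52 without knock-in array 1. Myh1 (1427520_a_at), the myosin of IIx fibres, gave 7827.9, 4559.2 and 3395.6 in knock-in, against 4541.7, 4640.2 and 3098.2 in wild-type. Only knock-in array 1 lay above the wild-type range, and the other two lay within it. The log2 difference of 0.30 ± 0.40 was smaller than its error, and without knock-in array 1 it was -0.03. The probe set 1427868_x_at gave 0.35 ± 0.40, and a further probe set (1452465_at) was dim on all arrays, at 8.77 to 12.7 in knock-in and 8.24 to 20.6 in wild-type. Probe sets with the suffix x_at may read related transcripts, and the myosin heavy chains of this cluster are close in sequence, so some signal of one may come from another.

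Mybpc2 (1455736_at), the fast form of myosin-binding protein C, which sits on the thick filament and tunes cross-bridge cycling, gave 527.1, 383.7 and 334.0 in knock-in, against 1050.6, 2191.9 and 1515.1 in wild-type. Every knock-in array lay below every wild-type array, and wild-type array 2 was the highest. The log2 difference was -1.86 ± 0.36, with knock-in at 26.2% of wild-type.

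The fast troponins of the thin filament, which make contraction depend on calcium, showed smaller differences that overlapped on the brightest probe sets. Tnnt3 (1450118_a_at), the fast troponin T that ties the complex to tropomyosin, gave 4224.8, 2484.3 and 2195.7 in knock-in, against 4090.4, 7055.9 and 5111.3 in wild-type. Knock-in array 1 reached above wild-type array 1, and the other two knock-in arrays lay below all wild-type arrays. Its log2 difference was -0.89 ± 0.37, with knock-in at 54.8% of wild-type. Tnni2 (1416889_at), the fast troponin I that inhibits the actin and myosin interaction at rest, gave 5166.1, 2914.4 and 2960.0 in knock-in, against 4191.6, 7341.6 and 5624.5 in wild-type. Knock-in array 1 again lay within the wild-type range. The log2 difference of Tnni2 was -0.65 ± 0.36. On a second bright probe set (1438609_x_at) Tnni2 gave 3495.3, 1285.2 and 1261.4 in knock-in, against 3497.6, 6017.4 and 4544.6 in wild-type. There the groups were apart only by the narrow gap between knock-in array 1 and wild-type array 1, with a log2 difference of -1.35 ± 0.53. The last probe set of Tnni2 (1438608_at) was dim, at 6.6 to 10.8 in knock-in and 9.03 to 36.5 in wild-type.

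Actn3 (1418677_at), the alpha-actinin that cross-links actin at the Z-disc of fast fibres, gave 1249.6, 568.2 and 811.1 in knock-in, against 2238.9, 3836.1 and 2584.7 in wild-type. Every knock-in array lay below every wild-type array. The log2 difference was -1.74 ± 0.40, with knock-in at 30.4% of wild-type.

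The 3 genes of calcium handling were all lower on every knock-in array, and on the brightest probe sets they included the largest differences, those of Pvalb and Casq1. Atp2a1 (1419312_at), the fast calcium pump that returns calcium to the sarcoplasmic reticulum, gave 1199.5, 703.1 and 616.9 in knock-in, against 1515.4, 2820.9 and 1849.7 in wild-type. Its log2 difference was -1.29 ± 0.39, with knock-in at 40.7% of wild-type. Casq1 (1422598_at), the calsequestrin that stores calcium in that reticulum in fast fibres, gave 274.0, 144.9 and 158.1 in knock-in, against 960.1, 1571.0 and 1015.3 in wild-type. No knock-in array came near the wild-type range, and the log2 difference was -2.54 ± 0.35, with knock-in at 16.3% of wild-type. Pvalb (1417653_at), parvalbumin, which buffers calcium in the cytosol and speeds relaxation of IIb and IIx fibres, gave 462.1, 393.9 and 348.1 in knock-in, against 3188.3, 6131.2 and 4265.2 in wild-type. This was the widest gap of the 10 genes. Pvalb averaged 401 ± 57.4 in knock-in and 4528 ± 1489 in wild-type (SD, n = 3 each), a log2 difference of -3.40 ± 0.29, with knock-in at 8.86% of wild-type. Pvalb is also made in some nerve cells, and the arrays do not separate the sources.

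**Figure D1:**
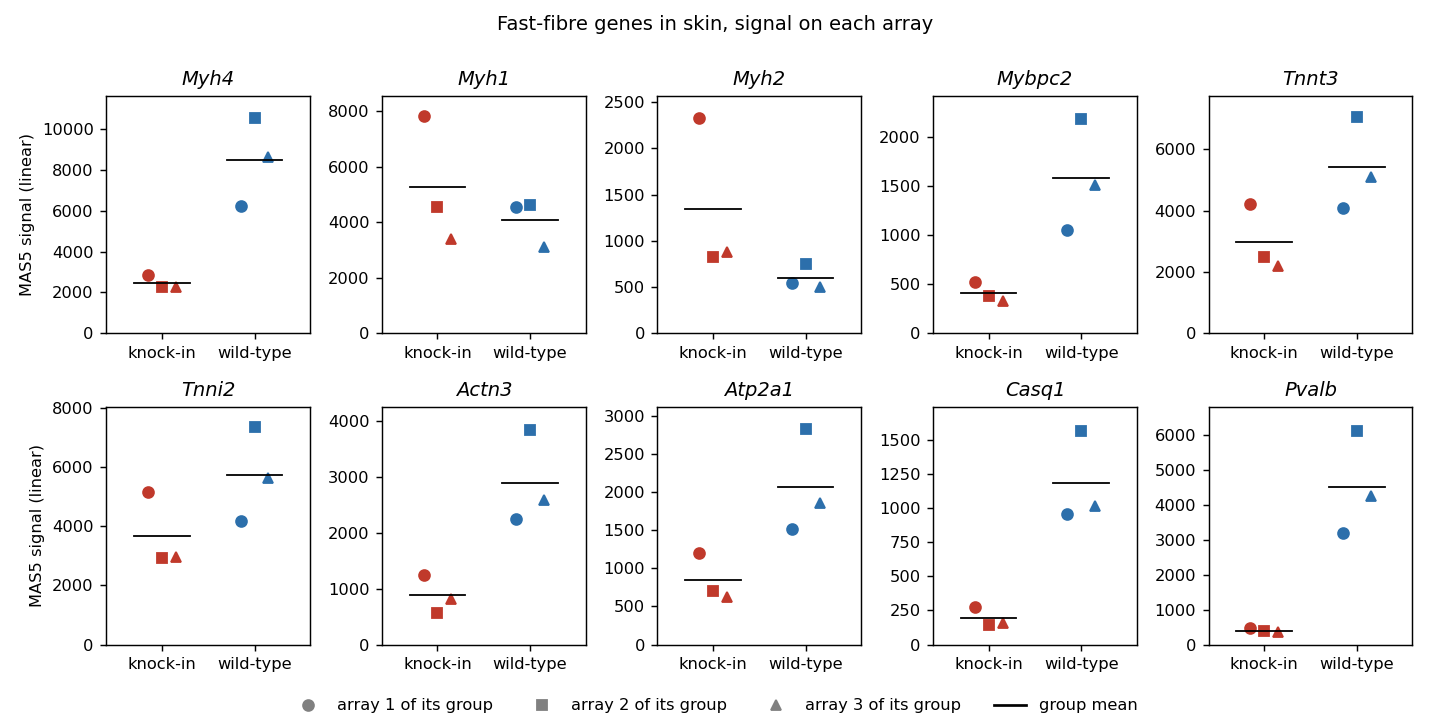
Linear MAS5 signal of the brightest probe set of each of the 10 genes, in 1 panel per gene with its own vertical axis from 0. Knock-in arrays are red and wild-type arrays blue, marker shape gives the array's number within its group, and horizontal lines are group means of 3 arrays. Pvalb shows the widest gap, at 348.1 to 462.1 in knock-in and 3188.3 to 6131.2 in wild-type, Myh2 is higher in knock-in, and knock-in array 1 (circle) is the highest of its group in all 10 panels.

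Of the 10 genes, 6 were lower in knock-in with no overlap between the groups, 1 was higher with no overlap and 3 overlapped. Over all genes tested, 47.1% had groups that did not overlap, 25.1% lower and 22.0% higher in knock-in, and since the genes were selected on this comparison nothing is read from the contrast between these shares. The median log2 difference of the 10 genes was -1.51, beside -0.02 for all genes tested. In the order of their differences, Pvalb was followed by Casq1, Mybpc2, Myh4, Actn3, Atp2a1, Tnnt3, Tnni2, Myh1 and Myh2. Standard errors of neighbours in this order overlapped, except between Pvalb and Casq1 and between Tnni2 and Myh1. Thus the calcium buffers stood at the lower end, the IIb myosin, Mybpc2 and Actn3 were close together, and the troponins and the IIx and IIa myosins stood at the upper end.

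**Figure D2:**
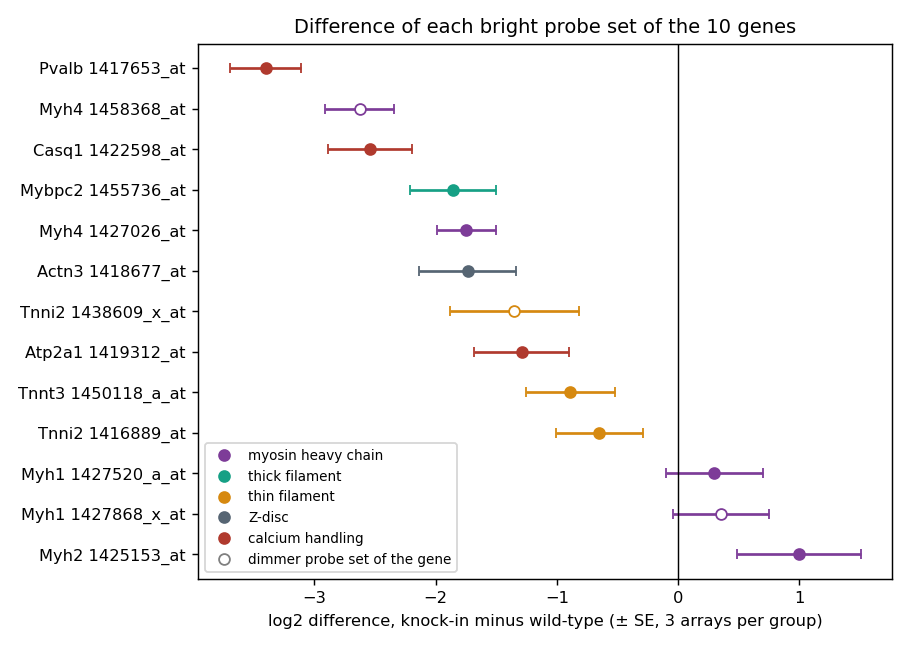
Log2 difference, knock-in minus wild-type, of the 13 bright probe sets of the 10 genes, with bars of 1 standard error over 3 arrays per group. Colours give the gene's role and open circles mark dimmer probe sets of a gene that has a brighter one. Differences run from -3.40 for Pvalb to 1.00 for Myh2, and the vertical line marks 0.

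The arrays of a group did not share 1 level of these genes. Knock-in array 1 was the highest of its group for 10 of the 10 genes, and wild-type array 2 was the highest of its group for 10 of the 10. Over all genes tested, knock-in array 1 was the highest of its group for 28.3%, wild-type array 2 for 36.3%, and both for 13.4%. Within knock-in the highest array exceeded the lowest by a ratio of 1.25 for Myh4 to 2.82 for Myh2, with a median of 1.91 over the 10 genes. Within wild-type the ratio ran between 1.50 for Myh1 and 2.09 for Mybpc2, with a median of 1.72. The same arrays stood out in sarcomere genes that slow and fast fibres share. The median over 24 such genes, each centred on its own mean over the 6 arrays, was 0.54, -0.40 and -0.27 on knock-in arrays 1 to 3 and -0.28, 0.39 and -0.06 on wild-type arrays 1 to 3, on the log2 scale. These levels overlapped between the groups.

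Taken relative to that level of their own array, a calculation chosen after seeing the data, 8 of the 10 genes were lower in knock-in with no overlap, 1 (Myh2) was higher and 1 (Myh1) overlapped. Over all genes tested, 11.7% had groups that did not overlap in these relative values, 4.94% lower and 6.80% higher in knock-in. The subtraction adds the spread of the muscle level to genes that do not share it, and nothing is read from the contrast with these shares. The SD pooled over both groups was smaller for 10 of the 10 genes, with a median of 0.18, beside 0.44 for the signals as deposited. Within knock-in the SD was smaller for 8 of them and larger for Myh4, at 0.32 beside 0.18, and Pvalb, at 0.36 beside 0.20. Within wild-type it was smaller for 9 and larger for Myh1, at 0.41 beside 0.33. Tnnt3 and Tnni2, which overlapped as deposited, no longer did, with relative log2 differences of -0.83 ± 0.10 and -0.59 ± 0.07. Casq1 varied least, with -2.53, -2.45 and -2.47 on the knock-in arrays relative to the wild-type mean, against 0.04, 0.07 and -0.10 on the wild-type arrays. Myh2 gave 1.44, 0.89 and 0.84 in knock-in, against 0.20, -0.04 and -0.16 in wild-type, a relative difference of 1.06 ± 0.22. Pvalb gave -3.72, -3.01 and -3.31 in knock-in, against -0.15, 0.11 and 0.04 in wild-type, a relative difference of -3.34 ± 0.22. The subtraction shifts all 10 differences by the same amount, so it bears on the spread and the overlap and not on the order of the genes. The 24 genes were not constant between the groups, since 4 of them were called higher and 1 lower, and the relative values rest on their median.

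**Figure D3:**
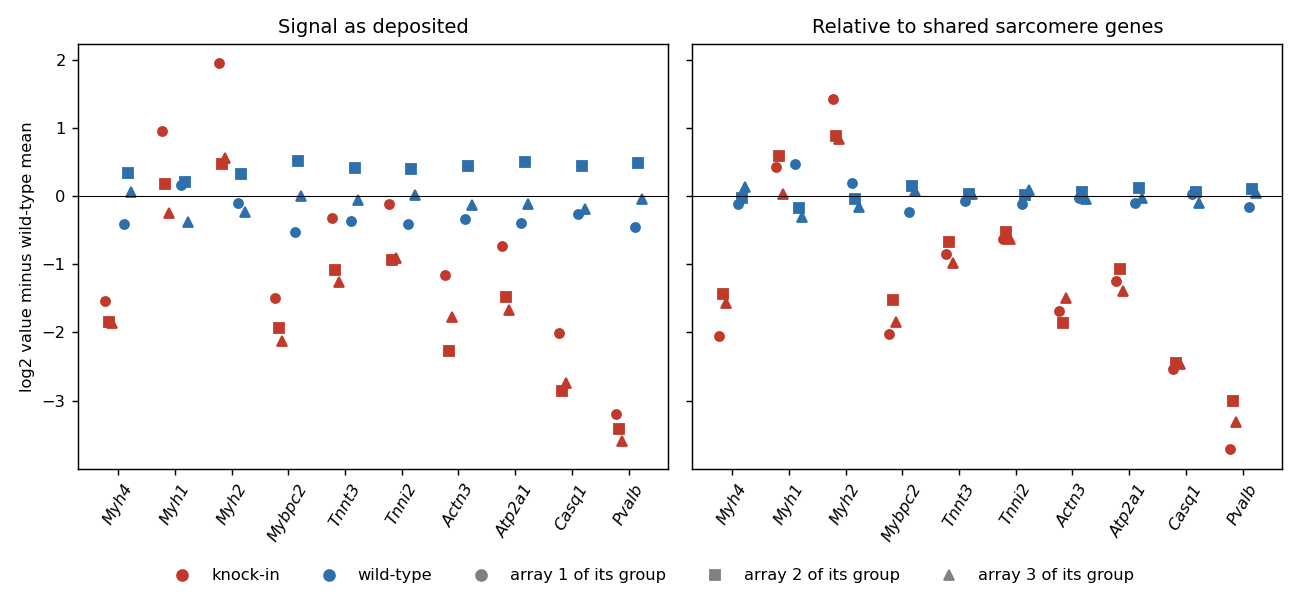
Log2 value minus the wild-type mean for each of the 10 genes, on the left for the signals as deposited and on the right relative to the median of 24 sarcomere genes on the same array. Red is knock-in, blue is wild-type and the marker shape gives the array's number in its group. The SD pooled over both groups is smaller on the right for every gene, with a median of 0.18, beside 0.44 on the left, although the knock-in arrays lie further apart there for Myh4 and Pvalb and the wild-type arrays for Myh1.

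Many of these proteins have a counterpart that slow fibres, or slow and fast fibres alike, use in the same role, and the ratio of the pair on 1 array cancels any overall level that both share. In 6 of 7 such pairs the log2 ratio of fast gene to counterpart was lower on every knock-in array than on every wild-type array. These ratios carry the selection of their fast member. The share of other gene pairs whose ratios separate the groups was not computed, so nothing is read from this count. Actn3 over Actn2, the alpha-actinin of all fibres, differed by -2.79 ± 0.24, and Actn2 itself gave 1170.6, 492.7 and 501.3 in knock-in, against 302.7, 350.9 and 282.4 in wild-type. Casq1 over Casq2, the cardiac and slow calsequestrin, differed by -2.95 ± 0.29, while Casq2 overlapped, at 128.5, 120.5 and 96.4 in knock-in and 89.8, 99.6 and 62.0 in wild-type. Tnnt3 over the slow troponin T Tnnt1 differed by -2.58 ± 0.67, and Tnnt1 gave 419.2, 180.4 and 209.3 in knock-in, against 144.0, 48.3 and 39.8 in wild-type. In these pairs the fast gene was lower or overlapped while its counterpart was higher or overlapped.

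For Mybpc2 over Mybpc1, the form that slow and many fast fibres carry and 1 of the 24 shared genes above, as is Actn2, the log2 ratio differed by -2.33 ± 0.32, and for Atp2a1 over Atp2a2, the slow and cardiac calcium pump that other cells use too, by -1.51 ± 0.42. Mybpc1 itself gave 1697.6, 709.2 and 704.7 in knock-in, against 633.4, 817.9 and 600.6 in wild-type. Its knock-in array 1 alone lay above the wild-type range. Myh4 over Myh7, the slow myosin, differed by -3.13 ± 0.60, with Myh7 at 78.2, 68.3 and 35.9 in knock-in and 30.5, 7.0 and 5.65 in wild-type, which is dim on most arrays. Only Tnni2 over the slow troponin I Tnni1 overlapped between the groups, with a difference of -1.47 ± 0.63, since wild-type array 1 lay within the knock-in range. On that array the ratios to Tnni1, Tnnt1 and Myh7 all lay about 1 log2 unit or more below the wild-type mean, at -1.21, -1.31 and -1.12. Between the fast myosins, the log2 ratio of Myh4 to Myh2 differed by -2.74 ± 0.41, that of Myh4 to Myh1 by -2.04 ± 0.40 and that of Myh1 to Myh2 by -0.70 ± 0.25. None of these 3 ratios overlapped between the groups, and from low to high the myosin differences stood in the order IIb, IIx, IIa. These ratios carry the selection of their members too, and no share over other gene pairs was computed to set beside them.

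**Figure D4:**
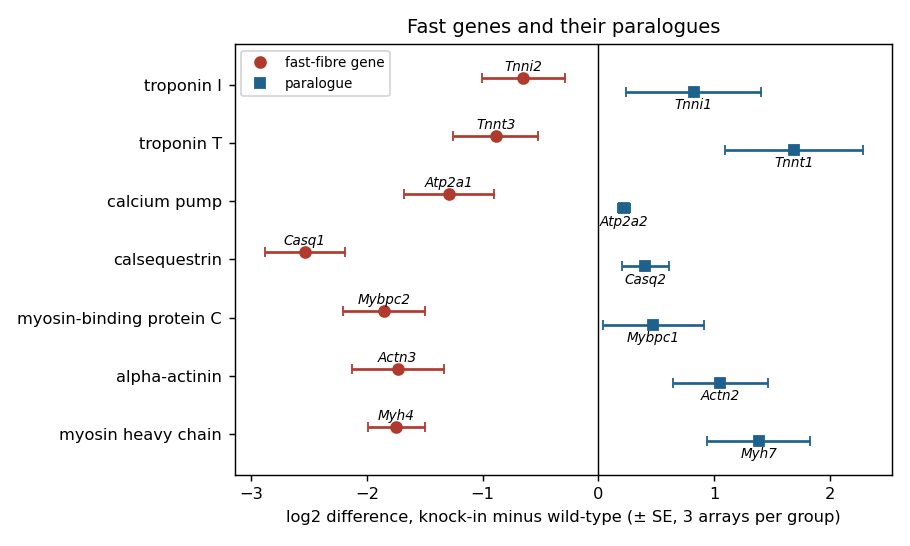
Log2 difference, knock-in minus wild-type, of 7 fast-fibre genes (red circles) and of the counterpart of each in the same role (blue squares), with bars of 1 standard error over 3 arrays per group. All 7 fast genes lie left of the line at 0, from -2.54 to -0.65, and all 7 counterparts right of it, from 0.22 to 1.69. The counterparts Tnni1, Casq2 and Mybpc1 nevertheless overlapped between the groups, as did the fast genes Tnnt3 and Tnni2, and Myh7 was too dim to test.

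Genes outside the 10 that work beside them were tested with limma, with Benjamini-Hochberg adjustment over the 11670 genes and a threshold of 0.05. By that rule 31.2% of all genes tested were called, 14.8% higher and 16.3% lower in knock-in, and 47.6% of the calls were higher. These 3636 calls came to 2394 without wild-type array 3. With each array centred on its median instead, 68.1% of the calls were higher and the median difference of all genes moved to 0.11, while none of the 10 genes turned in direction. Of 7 other fast contractile genes, 4 fell and 1 rose, with a median of -0.68. Myoz1, the fast calsarcin of the Z-disc, fell by 1.29 ± 0.23 on the log2 scale (adjusted p = 0.00355, and 0.00199 to 0.0156 over the alternatives), and the fast myosin light chain Myl1 fell by 0.79 ± 0.20 (adjusted p = 0.0191, and 0.0014 to 0.0746). Mybph, a relative of Mybpc2, rose by 2.04 ± 0.37 (adjusted p = 0.004, and 0.00136 to 0.0211). This count of 5 came to 2 without wild-type array 2, knock-in array 2 or knock-in array 3, and to 3 without wild-type array 3.

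The 24 sarcomere genes shared by fibre types had a median of -0.12, with 4 called higher (Hspb7, Flnc, Actn2 and Klhl40, by 0.99 to 1.85) and 1 lower (Lmod3, by -1.44). The median of the 10 fast genes, -1.51, carries their selection on this comparison, so nothing is read from setting it beside -0.12. Lmod3 passed the filter only on the wild-type arrays, which ties its direction to its entry into the test. Adjusted p over the alternatives reached 0.0144 for Hspb7, 0.0266 for Flnc and 0.00342 for Lmod3. Actn2 lost its call without wild-type array 1 or 3 (adjusted p = 0.0258, and 0.00889 to 0.0908 over the alternatives) and came to 0.65 without knock-in array 1. Klhl40 lost its call without wild-type array 1 or 3 or knock-in array 1 or 3, and with the replicate block (adjusted p = 0.0278, and 0.0093 to 0.101). Without knock-in array 1 that count came to 3 higher and 10 lower, and without wild-type array 3 to 2 higher and 1 lower. Among 16 genes of excitation-contraction coupling, which release and take back calcium as Atp2a1 and Casq1 do, 9 fell and 1 rose, with a median of -1.01. Dhrs7c, among those 9, passed the filter only on the wild-type arrays, which ties its direction to its entry into the test. Jph2, which holds the reticulum to the surface membrane, fell by 1.50 ± 0.27 (adjusted p = 0.00396, and 0.00157 to 0.0203 over the alternatives), and Hrc, a calcium-binding protein of the reticulum like Casq1, fell by 1.16 ± 0.19 (adjusted p = 0.00235, and 0.00148 to 0.0115). Sln, the sarcolipin that inhibits the calcium pump, rose by 1.88 ± 0.36 (adjusted p = 0.00535, and 0.00213 to 0.02). With the mean over all probe sets of a gene, Jph2 came to -0.88 and Sln to 1.00. The count of 10 came to 6 without knock-in array 2 or knock-in array 3.

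Of 13 genes of muscle glycolysis, glycogen and phosphocreatine, the fuels of fast fibres, 8 fell and 0 rose, with a median of -1.05. Ampd1, the muscle AMP deaminase, fell by 2.10 ± 0.34 (adjusted p = 0.00245, and 0.00079 to 0.0136 over the alternatives), and the muscle glycogen phosphorylase Pygm fell by 1.34 ± 0.25 (adjusted p = 0.00491, and 0.00211 to 0.0245). Of 8 oxidative fibre genes 3 fell, namely Cox7a1, Ckmt2 and Perm1, with a list median of -0.66, and the count came to 5 without wild-type array 1 or knock-in array 1. Perm1 passed the filter only on the wild-type arrays, which ties its direction to its entry into the test. Of 10 slow-fibre genes, by contrast, 7 rose, among them Ankrd2 by 3.27 ± 0.37, Csrp3 by 2.98 ± 0.32, Myoz2 by 1.97 ± 0.37 and Tnnt1 by 1.69 ± 0.42, with Myl2, Tnnc1 and Tpm3 between 0.33 and 1.33. Adjusted p over the alternatives reached 0.0032 for Ankrd2, 0.00228 for Csrp3 and 0.0219 for Myoz2. Tnnt1 lost its call without wild-type array 3 (0.0668), and Tnnc1 without wild-type array 2 or 3 (up to 0.0989), with a difference of 0.83 without knock-in array 1. Myl2 (up to 0.0947) and Tpm3 (up to 0.0877) each lost theirs without wild-type array 2 or 3 or knock-in array 1 or 2, and Tpm3 also with the replicate block or quantile normalization. The slow isoforms Tnni1, Atp2a2 and Casq2 were not called (limma, adjusted p = 0.167, 0.0801 and 0.113). The slow-fibre count came to 4 without wild-type array 2 and to 3 without wild-type array 3. With no filter all 14 genes of the list were tested, and 8 were called higher and 1 lower.

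**Figure D5:**
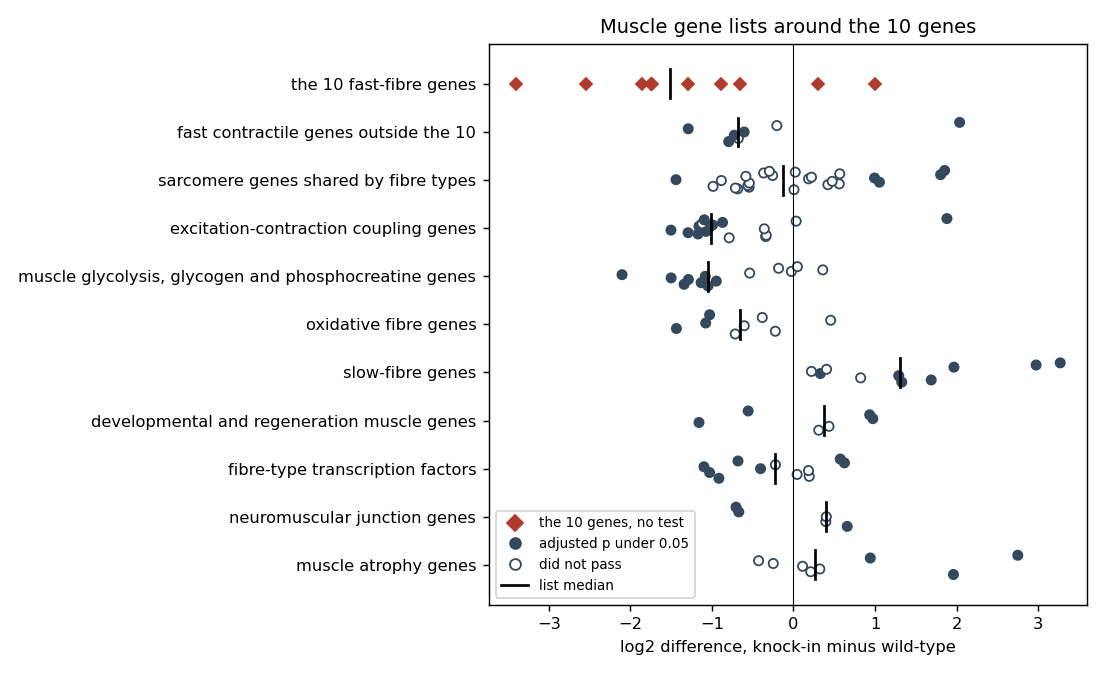
Log2 difference, knock-in minus wild-type, of the 10 fast-fibre genes (red diamonds, top row, with no test) and of the tested genes of 10 other muscle lists (filled circles for an adjusted p under 0.05, open circles otherwise), with a bar at each list's median. The median is -1.51 for the 10 genes, which were selected on this comparison, -1.05 for glycolysis and phosphocreatine genes and 1.31 for slow-fibre genes.

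Among 11 transcription factors linked to fibre type, 5 fell and 2 rose, with a median of -0.22. With the mean over all probe sets of a gene, the differences of Maf, Eya1 and Sox6 came to -0.29, -0.51 and -0.53. Maf, whose family drives Myh4 in mouse muscle, gave 1638.4, 1911 and 1553.6 in knock-in, against 2765, 2541.7 and 2882 in wild-type, and fell by 0.68 ± 0.10 (adjusted p = 0.00181, and 0.000873 to 0.049 over the alternatives). Mef2c, a factor of the MEF2 family, fell by 1.03 ± 0.16 (adjusted p = 0.00223, and 0.00132 to 0.035). Eya1, a partner of the sine oculis homeobox factors of fast fibres, fell by 0.91 ± 0.15 (adjusted p = 0.00224, and 0.00123 to 0.0142). Sox6, a repressor of slow genes, fell by 1.10 ± 0.26 (adjusted p = 0.0132, and 0.00638 to 0.0632), a call lost with that mean and without wild-type array 3 or knock-in array 3. Tead4 rose by 0.62 ± 0.15 (adjusted p = 0.0159, and 0.00725 to 0.0621), a call lost without wild-type array 3 or knock-in array 1. Eya1 passed the filter only on the wild-type arrays and Tead4 only on the knock-in arrays, which ties their directions to their entry into the test. Vgll2 rose by 0.57 ± 0.17 (adjusted p = 0.0356, and 0.0131 to 0.126), a call lost without wild-type array 2 or 3 or knock-in array 1 or 2 and with no filter. Maf and Mef2c are expressed in other cells of skin as well. For no gene of any list do the arrays say which cells gave the signal. The count of 7 came to 4 without wild-type array 3.

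Outside the 10, the gene profiles nearest to the mean profile of the 10 over the 6 arrays were sought by the root mean square difference of centred log2 values, as a description. The 8 nearest were Sh3bgr, Cgn, Mboat2, Pygm, Ckm, Pfkm, Myoz1 and Cox7a1, at 0.109 to 0.130. Pygm, Ckm and Pfkm belong to the fuel list, with Ckm, the muscle creatine kinase, at 4570.9, 2740.6 and 2607 in knock-in and 5495.3, 8542.3 and 6208 in wild-type. Cgn, known for its place at epithelial tight junctions, gave 114.7, 66.2 and 62.9 in knock-in, against 154.2, 240.6 and 208.1 in wild-type.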

How the data were processed

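Skin RNA was measured on 6 single-channel arrays. The deposited values are linear signal intensities per probe set, made by the authors with MAS5 per the submitters' processing notes. Its version is not given in the sources used here. Every array had the same trimmed mean of 150, so the values were used as scaled, and there are no detection calls. The platform annotation names 1 gene for 34945 probe sets, several for 932 and none for 9160, and only the first kind was used. Each gene was read from its brightest probe set by the mean of all arrays. Genes above the array median on at least 3 arrays were kept, which left 11670 of 18193.

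Values were taken as log2(signal + 16), which understates the differences of dim genes, and tested across all genes with limma 3.58.1 in R 4.3.3 (lmFit, eBayes with trend, two-sided, Benjamini-Hochberg, threshold 0.05). The procedure was tested on simulated data. At this threshold 3636 genes were called and 4993 had an unadjusted p under 0.05. The 10 genes, the 10 companion lists and the marker lists were chosen with earlier results of these data known. The text names the 10 genes, the paralogue of each, up to 4 genes per list with the smallest unadjusted p, the list genes called higher, and the 8 nearest profiles. Other genes named (Acta1, Ttn, Mylpf, Des and the Xist and Y-linked check) were chosen after their values were seen. Alternatives were other offsets, filters, normalizations, probe set rules and variance priors, array weights, the replicate number as a block and leaving out each array. The number of arrays limits the precision. Promoter sequences come from RefSeq, and coordinates from no build other than GRCm38.p6 were used.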

Additional observations from a re-analysis of the deposited data

How the results depend on the processing

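The median log2 difference of the 10 fast-fibre genes lay between -1.71 and -1.28 when each array was left out in turn, and between -1.57 and -1.38 under the other alternatives, including the level relative to shared sarcomere genes, which was chosen after seeing the data. With the mean over probe sets Myh4 gave -2.19, and Jph2, Sln, Maf, Eya1, Sox6 and Dok7 moved towards 0 by over 1.5 times and Tpm3 away from it, to 0.54. An offset of 64 moved 14 of the dimmer list genes towards 0 by over 1.5 times. Counts of called genes were less stable. Leaving out each array gave 2394 to 3367 genes called over all genes, 2 to 6 fast contractile genes outside the 10, 3 to 13 shared sarcomere genes, 6 to 12 excitation-contraction coupling genes, 6 to 8 fuel genes, 3 to 5 oxidative genes, 3 to 8 slow-fibre genes, 1 to 4 developmental genes, 4 to 7 transcription factors, 1 to 3 neuromuscular junction genes and 3 to 4 atrophy genes. Without the filter, 3 fast contractile genes were called. The stricter filter, which leaves fewer genes to test, called 3 shared sarcomere genes, 5 coupling genes and 3 transcription factors, and left 0 developmental and 0 junction genes to test or call. Quantile normalization called 5 junction genes, median centring 5 junction and 5 atrophy genes, and array weights 5 atrophy genes; the cause was not tested. Of the slow-fibre genes, 4 of 14 were dim and left out of the tests. Replicate numbers are shared between the groups. Deviations of same-numbered arrays from their group means gave r = -0.25, -0.41 and -0.02 for numbers 1, 2 and 3, and unlike numbers gave -0.10 to 0.35. With 3 arrays centred within each group such values offset one another, so they cannot exclude a pairing. With the replicate number as a block, 2450 genes were called over all genes, 3 fast contractile and 2 developmental genes. No log2 difference named in the text and called in the main setting turned in sign under these alternatives. Signals near the offset of 16 give differences that are too small.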

Other observations

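Of genes of muscle development, the neuromuscular junction and muscle atrophy, some were called in each list, beside 31.2% called over all genes tested. Of 6 tested developmental and regeneration genes, 2 rose, 2 fell and 2 were not called. A further 9 on the array were too dim to test. Myog, a factor of muscle differentiation, gave 116, 66.5 and 72.5 in knock-in, against 47.6, 41 and 22 in wild-type, and rose by 0.93 ± 0.25 (limma, adjusted p = 0.0205, and 0.00891 to 0.0685 over the alternatives). Myf6, a related factor of mature fibres, rose by 0.97 ± 0.27 (adjusted p = 0.0257, and 0.00843 to 0.0921). Actc1, the cardiac and fetal actin, fell by 1.16 ± 0.30 (adjusted p = 0.0196, and 0.00589 to 0.0749), and Pax3 fell by 0.56 ± 0.16 (adjusted p = 0.028, and 0.0113 to 0.0996). Pax3 passed the filter only on the wild-type arrays, which ties its direction to its entry into the test. The count of 4 came to 1 without wild-type array 1, wild-type array 3 or knock-in array 3, and to 2 without knock-in array 1.

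Of 5 neuromuscular junction genes tested, 1 rose, 2 fell and 2 did not pass. Chrna1, the muscle acetylcholine receptor subunit, rose by 0.66 ± 0.18 (adjusted p = 0.0242, and 0.00938 to 0.0929 over the alternatives), while Lrp4, the agrin receptor, fell by 0.67 ± 0.13 (adjusted p = 0.00612, and 0.00381 to 0.0261) and Dok7 fell by 0.70 ± 0.20 (adjusted p = 0.0255, and 0.0077 to 0.0834). This count of 3 came to 1 without wild-type array 3 or knock-in array 3. Chrna1 passed the filter only on the knock-in arrays, which ties its direction to its entry into the test. Of 8 atrophy genes, 3 rose, 0 fell and 5 did not pass. Among those 5, named after their values were seen, the ubiquitin ligase Fbxo32 gave 0.21 ± 0.10 (adjusted p = 0.144), and the factors Foxo1 and Foxo3 gave -0.25 ± 0.10 and -0.43 ± 0.16 (adjusted p = 0.0923 and 0.0675). Trim63, the muscle ubiquitin ligase MuRF1, gave 1374.5, 1125.4 and 1030.6 in knock-in, against 232, 380.9 and 269.5 in wild-type, and rose by 1.96 ± 0.18 (adjusted p = 0.000166, and 2.513e-05 to 0.00181 over the alternatives). Ankrd1, a stretch-responsive protein of the sarcomere, rose by 2.75 ± 0.46 (adjusted p = 0.00285, and 0.00106 to 0.014), and Eif4ebp1, a brake on translation, rose by 0.94 ± 0.10 (adjusted p = 0.000287, and 6.137e-05 to 0.00456).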
